A study of Mus musculus with 12 samples.

Results

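Periostin (Postn) and other matricellular genes, namely Tgfbi, Sparc, Thbs1, Thbs2, Tnc, Fn1 and Spp1, were examined through every probe set that the array annotation assigns to 1 of these 8 genes alone. Of the 8 genes, 7 were measured, by 17 of 45037 probe sets, and they are 7 of the 18193 genes that could be named on the array. Tgfbi had 4 such probe sets, Sparc and Thbs2 had 3 each, Thbs1, Tnc and Fn1 had 2 each, and Postn had 1. Spp1, which encodes osteopontin, was named by no probe set alone and was not analysed here. The genes were chosen by name while the difference between co-culture and control on these same arrays was already known, so their group differences are given as a description and carry no test.

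The arrays compared 6 co-cultures of mesenchymal stem/stromal cells (MSCs) and hematopoietic stem/progenitor cells (HSCs) with 6 MSC-only cultures, the control. Both groups received 3000 MSCs per well, sorted from bone marrow by Sca-1 and PDGFR-α, the co-cultures also received 7000 HSCs (Lin-, Sca-1+ and c-Kit+) and the controls 0, and RNA was extracted on day 6. The labels give C57BL6/J mice, male and 6 weeks old, for every sample, with no genetic change in either group, while the study's methods took the MSCs of its co-cultures from mice labeled with green fluorescent protein and do not name the mice of the arrays. The sources used here do not give whether the cells touched or were divided by a transwell, whether MSCs were sorted again before RNA extraction, or which samples share a mouse, so any p-value measures only the spread between these samples.

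Matricellular proteins are secreted into the extracellular matrix, where they bind collagens, growth factors and cell surface receptors, mostly integrins, and modulate adhesion and signaling more than they bear load. Fibronectin differs in that it also forms the fibrils on which other matrix proteins assemble. In bone marrow and periosteum these genes are made mainly by stromal and osteogenic cells, with Fn1, Thbs1 and Tgfbi also made by monocytes and macrophages, and TGF-beta is a known inducer of several of them.

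Signals are those of the Affymetrix software on a linear scale, with a 2% trimmed mean of 496.6 to 497.3 on every array, and were taken as log2(signal + 16), a scale that understates the change of dim transcripts. Differences are co-culture minus MSC-only on that scale. The arrays stood apart in 2 ways. First, in a principal component analysis from which the 17 probe sets were left out, the first component (21.6% of the variance) placed co-cultures 2, 3 and 5 with MSC-only 1, 3 and 5 on its positive side and the other 6 arrays on its negative side, so each side holds 3 arrays of each group. Second, against the male label, the arrays numbered 3 and 4 in both groups had Xist signals of 16810 to 21978 with 0.5 to 13.6 for Y-linked Eif2s3y. The other 4 controls had Xist at 60.5 to 118 and Eif2s3y at 2604 to 2845, and the other 4 co-cultures had Xist at 13136 to 16604 with Eif2s3y at 1022 to 1331. The brightest probe set of each member is therefore described with and without the arrays numbered 3 and 4 and within each side of the component. Without those arrays, every co-culture left had high Xist and every control left had low Xist. In that subset, group and sex-linked signals cannot be told apart. The sorted cell type was checked against its markers as well. Stromal markers were detected, among them Pdgfra at 725 ± 415 (SD, n = 6) in co-cultures and 790 ± 223 (SD, n = 6) in controls. Of the 12 stromal markers listed, 3 (Thy1, Lepr and Lum) were dim, with a mean signal under 100. Yet Ptprc, which encodes CD45, measured 12044 ± 387 and 11941 ± 1265 (SD, n = 6). All 10 macrophage and monocyte markers had mean signals over 100 in both groups. Their means ran from 766 (Itgam) to 35597 (Lyz2) in co-cultures and from 828 to 35546 for the same genes in controls. The median difference of these markers was -0.03, with sums of 168370 to 217960 in co-cultures and 162906 to 230040 in controls. Their part in the members' signals was not tested.

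For the genes whose levels and co-variation are described below, 300 bases around an annotated transcript start (250 before and 50 after) are shown for Postn, the member with the lowest group difference, for Tgfbi, the member whose signal followed the first component most widely, and for Sparc, a collagen-binding member. They are RefSeq sequences of mouse build GRCm38.p6, written 5′ to 3′ on the gene's strand, with capitals for matches to the motifs searched on both strands. Postn lies at chr3:54360857-54361156 on the plus strand, Tgfbi at chr13:56609336-56609635 on the plus strand and Sparc at chr11:55420031-55420330 on the minus strand.
Postn: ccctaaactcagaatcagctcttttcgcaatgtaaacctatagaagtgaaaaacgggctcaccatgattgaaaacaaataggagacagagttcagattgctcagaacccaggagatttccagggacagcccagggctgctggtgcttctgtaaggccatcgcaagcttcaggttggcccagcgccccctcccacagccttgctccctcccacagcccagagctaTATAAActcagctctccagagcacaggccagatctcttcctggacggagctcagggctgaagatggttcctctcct
Tgfbi: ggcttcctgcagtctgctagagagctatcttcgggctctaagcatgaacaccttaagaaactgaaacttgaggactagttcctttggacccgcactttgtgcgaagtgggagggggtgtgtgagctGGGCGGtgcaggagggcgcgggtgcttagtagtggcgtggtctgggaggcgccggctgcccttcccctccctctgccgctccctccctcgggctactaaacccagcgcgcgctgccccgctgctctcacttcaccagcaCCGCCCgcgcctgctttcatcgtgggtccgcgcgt
Sparc: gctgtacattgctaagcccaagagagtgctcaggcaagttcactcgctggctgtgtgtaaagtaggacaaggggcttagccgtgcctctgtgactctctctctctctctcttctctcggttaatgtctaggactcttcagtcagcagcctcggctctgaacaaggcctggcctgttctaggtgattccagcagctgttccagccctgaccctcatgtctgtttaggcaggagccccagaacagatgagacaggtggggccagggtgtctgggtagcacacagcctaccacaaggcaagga

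The Postn window, 1 of 2 that the table holds for this gene, contains the TATA box letters TATAAA with their first base at position -26 from the start, and such letters occur in 13.6% of all 32851 windows of this length. The other Postn window, not shown, has no TATA box match. It holds the reverse complement of the CCAAT box, ATTGG, at position 24 from its own start. The Tgfbi window holds the GC box letters GGGCGG at position -124 and their reverse complement at position 15, and 35.7% of all windows hold a GC box. The Sparc window holds none of the letters searched. The remaining motifs searched were CCAAT (37.4% of windows), the AP-1 site TGANTCA (7.81%), the TEAD site GGAATG (14.7%), the SMAD palindrome GTCTAGAC (0.213%) and the CArG box by its name (1.63%). A match is only a description of these letters. Windows were held for 6 of the 8 genes, and none for Thbs1 and Fn1.

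The mean of the members' probe sets was lower in co-culture for 16 of 17 and higher for 1, with a median difference of -0.24. All 7 genes were lower at their brightest probe set. Over all probe sets of the array, 45.3% were lower and the median difference was 0.02. None of the 17 passed limma's test with Benjamini-Hochberg adjustment, where 2 of 45037 probe sets (0.00444%) passed in all, both higher in co-culture (Alox8 and Taf7l). At an unadjusted p under 0.05, 2 of the 17 were lower (Postn and the brightest probe set of Thbs2) and 0 higher, beside 1.55% of all probe sets lower and 2.81% higher. Of the 17, 15 had a mean signal of at least 100. In a limma fit of the 20976 such probe sets, the median difference was 0.00144. At the same unadjusted threshold, 369 of them were lower and 297 higher. Because the genes were chosen with this contrast in view, nothing is read from these counts.

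**Figure D1:**
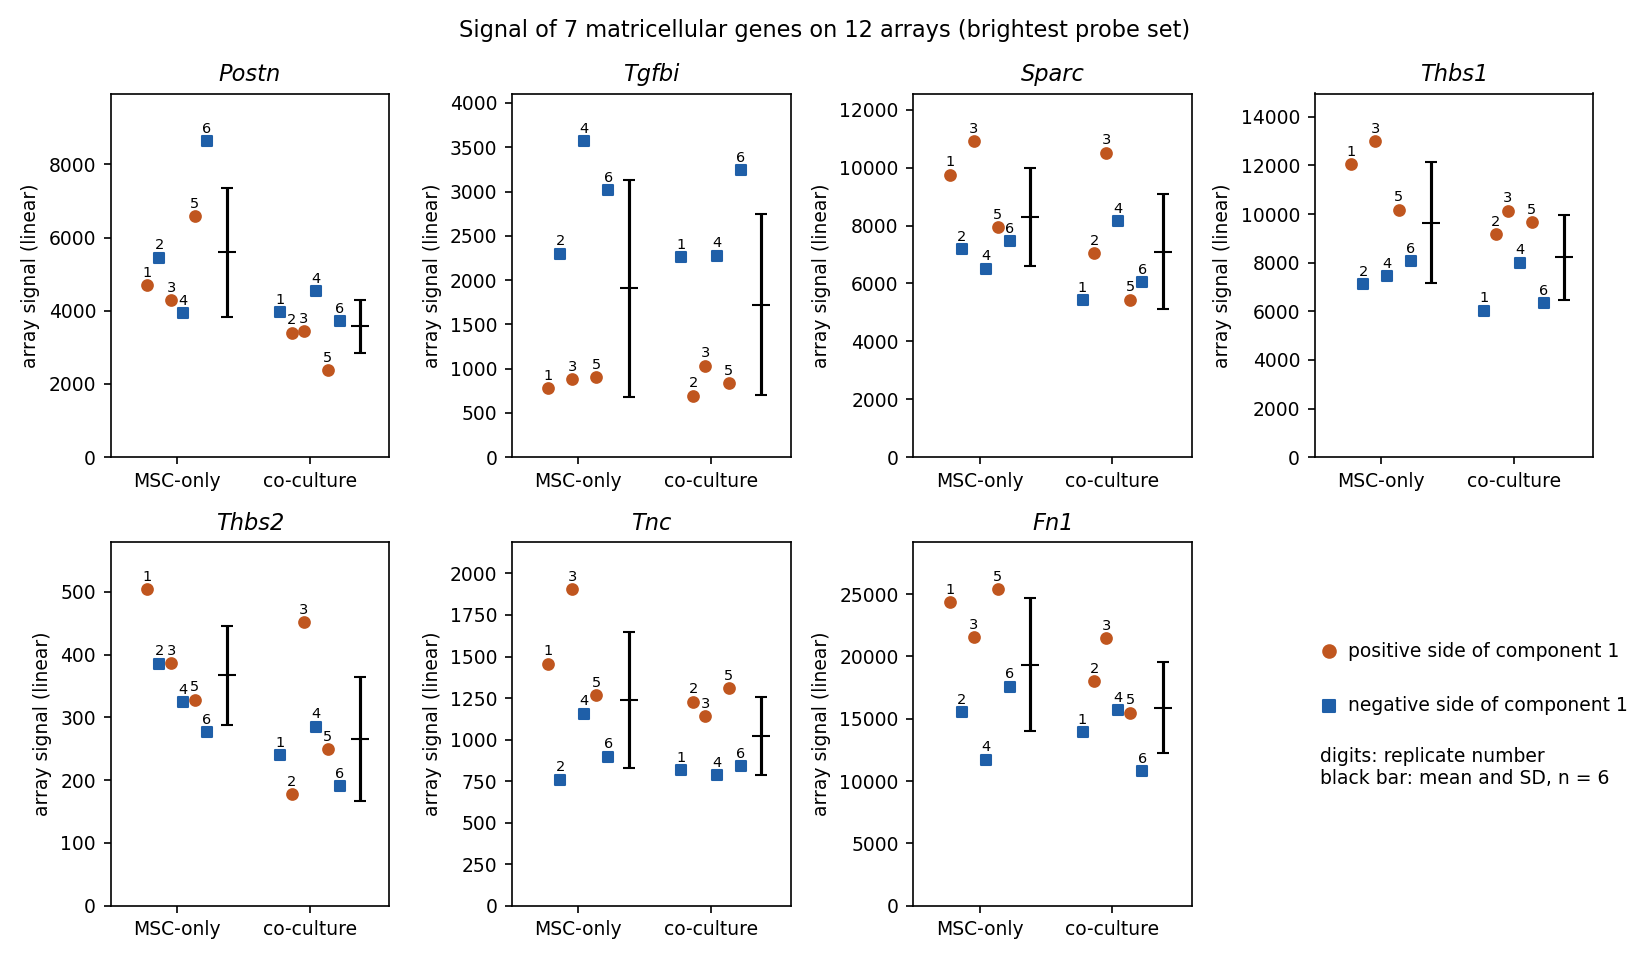
Signal (linear scale) of the brightest probe set of each of the 7 measured genes on the 12 arrays, MSC-only at the left and co-culture at the right of each panel; digits are replicate numbers, circles and squares the positive and negative side of the first principal component, and black bars the mean and SD (n = 6). Postn ran from 2375.8 to 4532.8 in co-cultures and from 3928.6 to 8641.8 in controls, while Tgfbi split by side and not by group.

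Postn encodes periostin, a secreted protein with fasciclin domains that binds integrins and helps collagen fibrils to form and crosslink. Its signal in the co-cultures, in the order of replicates 1 to 6, was 3957.4, 3399.4, 3444.4, 4532.8, 2375.8 and 3718.5. In the controls it was 4694.5, 5455.8, 4295.2, 3928.6, 6580.3 and 8641.8 in the same order. Below every control lay 4 co-cultures, and the groups met only where co-cultures 1 and 4 exceeded MSC-only 4 and co-culture 4 exceeded MSC-only 3. The means were 3571 ± 717 (SD, n = 6) and 5599 ± 1764 (SD, n = 6), a difference of -0.62 (SE 0.20) or 1.54-fold, the widest of the 7 genes. The spread among controls was larger than among co-cultures, with MSC-only 5 and 6 well above the others.

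Without the arrays numbered 3 and 4, Postn did not overlap between the groups. It measured 2375.8 to 3957.4 in 4 co-cultures and 4694.5 to 8641.8 in 4 controls, and the difference was -0.90 (SE 0.23). Xist did not overlap between these groups either, so a difference by group and a difference by sex-linked signal cannot be told apart here. The difference was -0.75 (SE 0.24) on the positive side of the first component, where the groups did not overlap, and -0.49 (SE 0.29) on the negative side, where they did. By replicate number it ran from -1.46 at number 5 to 0.21 at number 4, and it was below 0 at 5 of 6 numbers. At number 3 it was -0.32. Of 12 markers of stroma and fibroblasts, 9 had a lower mean in co-culture. The other 3 had a higher one (Lum at 1.03, SE 0.40, and Lepr at 0.25, both dim, and Dcn at 0.29). The median difference of the 12 markers was -0.30, and none passed the adjusted test. Their summed signal was 14621 to 40058 in co-cultures and 15830 to 40604 in controls, and without the arrays numbered 3 and 4 it was 14621 to 24824 against 23538 to 40604. Their part in the Postn difference was not tested. In RNA of a whole culture, fewer cells of a type and less RNA per cell cannot be told apart.

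Tgfbi encodes the closest relative of periostin in sequence, a fasciclin domain protein that is induced by TGF-beta and links collagens to integrins. Its brightest probe set measured 693.8 to 3239.2 in co-cultures (median 1646.1) and 779.0 to 3571.2 in controls (median 1599.8), and the groups overlapped almost wholly. The difference was -0.10 (SE 0.49), and the other 3 probe sets gave -0.28, -0.19 and -0.24. What separated the arrays was the side of the component. On the positive side all 6 arrays measured 693.8 to 1035.0, and on the negative side all 6 measured 2257.2 to 3571.2. The same split appeared in 3 of the 4 probe sets, and correlations among the 4 over 12 arrays ran from 0.76 to 0.99. Within the sides, the group difference was -0.01 (SE 0.18) and -0.19 (SE 0.23), and without the arrays numbered 3 and 4 it was -0.05 (SE 0.62). A gap of this kind was not particular to Tgfbi, since among 10180 genes with a mean signal of at least 100, 14.6% had no overlap between the sides. The within-group SD of Tgfbi was 0.95 log2 units, against 0.37 for Postn and a median of 0.21 over probe sets with a mean signal of at least 100.

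Sparc encodes osteonectin, a calcium- and collagen-binding protein that loosens cell adhesion and is abundant in bone matrix. The brightest probe set measured 5421.8 to 10512.3 in co-cultures (median 6543.3) and 6505.5 to 10920.3 in controls (median 7706.5). Co-culture 3 was second only to MSC-only 3 over all arrays, and 3 co-cultures lay below all controls. The means were 7101 ± 1973 and 8297 ± 1689 (SD, n = 6), a difference of -0.24 (SE 0.18). Without the arrays numbered 3 and 4, the groups did not overlap (5421.8 to 7052.4 against 7185.8 to 9756.3) and the difference was -0.43 (SE 0.15). It was -0.36 (SE 0.27) on the positive and -0.13 (SE 0.18) on the negative side. The second probe set gave -0.22 with all arrays. The third was dim, with a mean signal of 57.9, and gave 0.11 (SE 0.32), the only value above 0 among the 17. That sign rested on MSC-only 3, which read 7.3, and the value was -0.19 without this array and -0.31 without the arrays numbered 3 and 4. Correlations among the Sparc probe sets ran from -0.47, with the dim one, to 0.91 between the 2 bright ones.

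The thrombospondins come next. Thbs1 encodes thrombospondin-1, which activates latent TGF-beta and binds CD47 and CD36, and it measured 6018.2 to 10141.0 in co-cultures (median 8591.1) and 7126.7 to 13005.5 in controls (median 9117.8). The difference was -0.22 (SE 0.19), and the second probe set gave -0.26. Like Tgfbi, Thbs1 split by side without overlap, but in the opposite direction, at 9180.5 to 13005.5 on the positive side and 6018.2 to 8056.8 on the negative side. Its second probe set split likewise, at 3605.6 to 6140.4 against 1969.4 to 2799.1. On the positive side the 3 co-cultures lay below the 3 controls (difference -0.28, SE 0.15), and on the negative side the groups overlapped (-0.16, SE 0.15). Without the arrays numbered 3 and 4 the difference was -0.26 (SE 0.23). At the second probe set the groups overlapped on both sides of the component.

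Thbs2 encodes thrombospondin-2, a relative that does not activate latent TGF-beta and that limits vessel growth and shapes collagen fibrils. Its brightest probe set measured 177.9 to 451.5 in co-cultures (median 244.6) and 276.4 to 503.9 in controls (median 356.8). Below every control lay 4 co-cultures, while co-culture 3 exceeded 5 of the 6 controls. The means were 266 ± 99.2 and 367 ± 78.8 (SD, n = 6), a difference of -0.48 (SE 0.21) or 1.40-fold. Leaving out the arrays numbered 3 and 4 gave -0.74 (SE 0.20), with no overlap, and the sides gave -0.53 (SE 0.35) and -0.44 (SE 0.20). The other 2 probe sets gave smaller differences of -0.14 and -0.18 with all arrays, so the size of the Thbs2 difference depended on the probe set read.

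Tnc encodes tenascin C, a large glycoprotein of remodeling and injured tissue that counters adhesion to fibronectin. Its brightest probe set measured 786.8 to 1309.3 in co-cultures (median 991.5) and 759.5 to 1903.9 in controls (median 1210.8). No co-culture lay below every control. The difference was -0.24 (SE 0.22) with all arrays and -0.05 (SE 0.25) without those numbered 3 and 4, so the value came closer to 0 when these arrays were left out, where those of Postn, Sparc, Thbs2 and Fn1 moved away from it. MSC-only 3, at 1903.9, was the highest of all arrays. Within the sides the difference was -0.31 (SE 0.19) and -0.18 (SE 0.18). The dim second probe set, with a mean signal of 74.4, gave -0.17.

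Fn1 encodes fibronectin, whose fibrils cells assemble through integrins and to which periostin and tenascin C bind. It measured 10811.7 to 21495.1 in co-cultures (median 15595.2) and 11717.9 to 25382.7 in controls (median 19563.0). The 3 highest arrays were MSC-only 5, 1 and 3. Means of 15906 ± 3623 and 19349 ± 5334 (SD, n = 6) gave a difference of -0.26 (SE 0.21), and the second probe set gave -0.25. Without the arrays numbered 3 and 4 the difference was -0.50 (SE 0.22), and the groups still overlapped. On the positive side the co-cultures lay below the controls (15503.2 to 21495.1 against 21554.6 to 25382.7; difference -0.38, SE 0.17), with co-culture 3 and MSC-only 3 nearly level. On the negative side the difference was -0.14 (SE 0.22). At the second probe set the groups overlapped on both sides, and co-culture 3, at 1281.1, exceeded every control.

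Counted over all 17 probe sets, 0 had co-cultures wholly below controls with all 12 arrays, where 0.0733% of all probe sets did. Without the arrays numbered 3 and 4 there were 4 (Postn, the brightest of Sparc and 2 of Thbs2), beside 2.03% of all probe sets. On the positive side there were 3 (Postn, Thbs1 and Fn1 at their brightest probe sets), beside 4.1%, and on the negative side 0, beside 3.66%. Within the co-culture group, co-culture 3 was the highest array for 4 of the 7 genes (Sparc, Thbs1, Thbs2 and Fn1), and within the controls MSC-only 3 was the highest for 3 (Sparc, Thbs1 and Tnc).

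**Figure D2:**
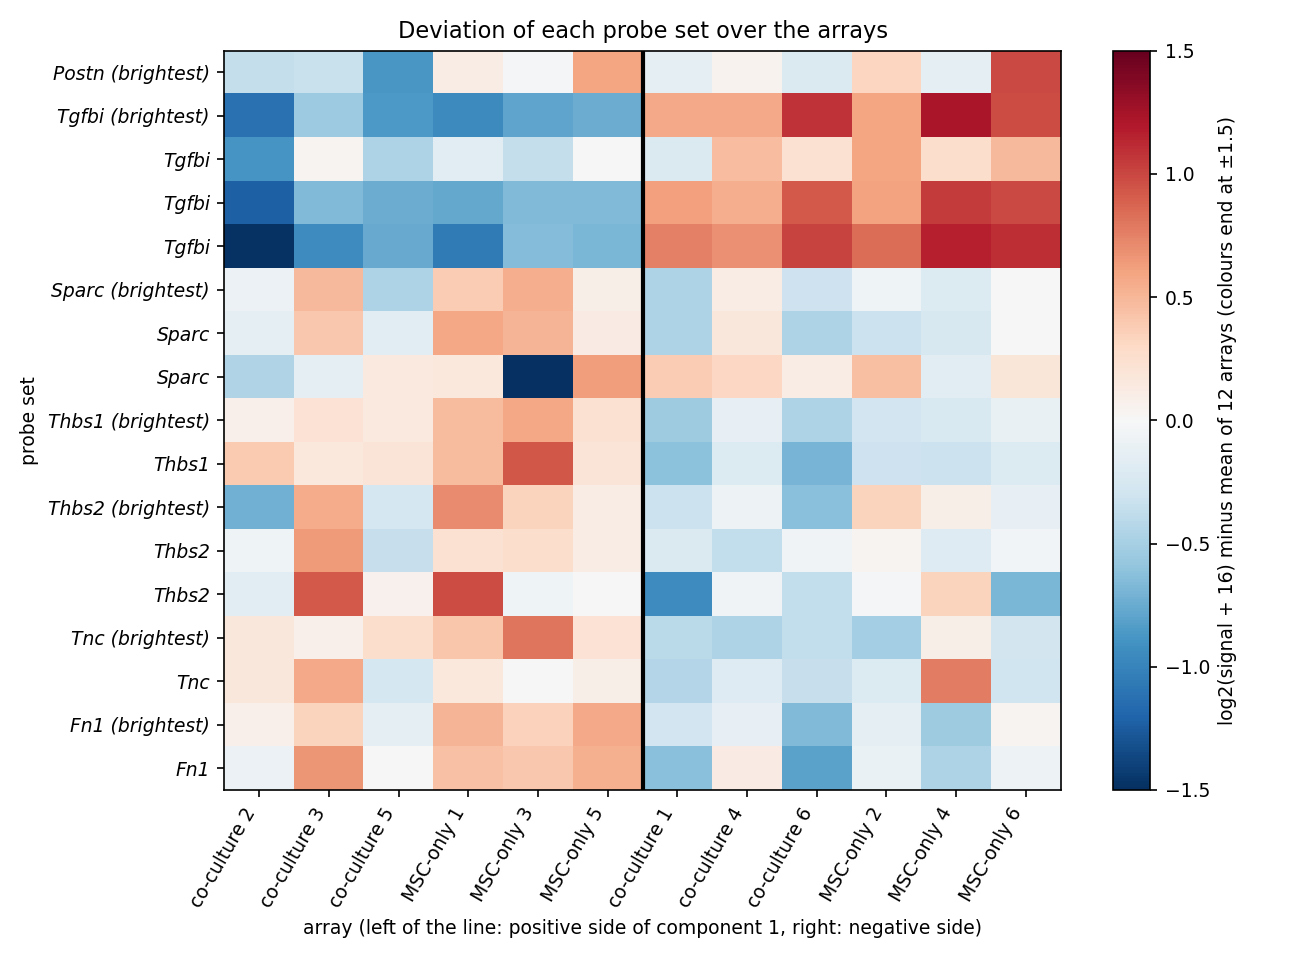
Deviation of each of the 17 probe sets (rows, grouped by gene) from its mean over the 12 arrays (columns), in log2(signal + 16) units, with red above and blue below the mean and colours ending at 1.5 units; the line divides the 6 arrays of the positive side from the 6 of the negative side. Tgfbi is below its mean at the left and above it at the right, Thbs1 the reverse, and Postn follows the group more than the side.

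How the genes varied together depended on whether arrays of both sides were pooled. Over 12 arrays, the 21 pairs of brightest probe sets had a median Pearson r of 0.31, and 14 were positive. Taken as deviations from the mean of each side, the median was 0.40 and 19 were positive, and as deviations from the group means the median was 0.23. Correlations are a description with no test, since the arrays share scaling and the genes share arrays, and with 6 arrays a side 1 array can set the value. Because the sides form separate clusters, values of pairs are given for each side, positive side first.

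Postn and Fn1 were the most alike of the pairs that hold Postn, with r = 0.93 and 0.82 (n = 6 each), and on the positive side both genes put the 6 arrays in the same order. Pooled over the 12 arrays r was 0.30, with arrays of the positive side at higher Fn1 for a given level of Postn. As deviations from the group means over all 12 arrays, Postn gave 0.10 with Fn1, -0.36 with Thbs1 and -0.63 with Tnc. Postn and Sparc correlated at 0.51 and 0.57, and Postn and Thbs1 at 0.40 and 0.62. With Tnc, Postn gave 0.20 and -0.12, and with Tgfbi, its closest relative, 0.13 and -0.04.

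**Figure D3:**
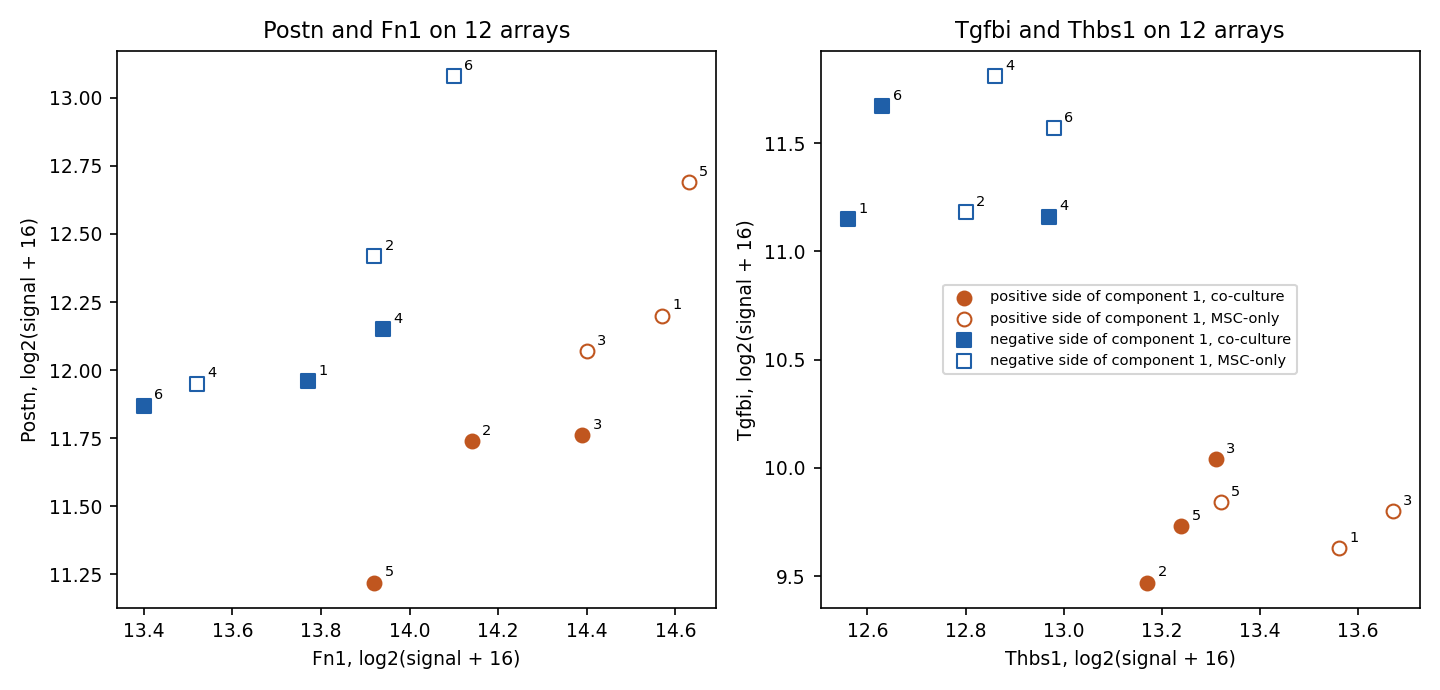
Postn against Fn1 (left) and Tgfbi against Thbs1 (right) on the 12 arrays, in log2(signal + 16), with circles for the positive and squares for the negative side of the first component, filled for co-cultures and open for MSC-only; digits are replicate numbers. Postn and Fn1 lie along a line within each side (r = 0.93 and 0.82), while Tgfbi and Thbs1 form a separate cloud per side with no slope inside it (r = 0.16 and 0.12).

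Sparc and Thbs1 correlated at 0.72 and 0.92, Sparc and Thbs2 at 0.77 and 0.52, and Sparc and Fn1 at 0.72 and 0.63, so these 3 pairs were positive on both sides. Thbs1 and Tnc gave 0.87 and 0.21. Tgfbi was the exception. Pooled, it ran against Thbs1 (r = -0.82), Fn1 (-0.77) and Tnc (-0.74), but within the sides it gave 0.16 and 0.12 with Thbs1, 0.32 and -0.56 with Fn1, and -0.10 and 0.82 with Tnc, so the pooled opposition to Thbs1 was not seen inside either side, while that to Fn1 was seen on the negative side and that to Tnc was weak on the positive side and turned on the negative. As deviations from the side means, Tgfbi gave 0.13 with Thbs1, -0.21 with Fn1 and 0.40 with Tnc. The summed signal of the stromal markers correlated with Fn1 at 0.86 and 0.81, with Sparc at 0.85 and 0.93, with Thbs2 at 0.95 and 0.54, with Thbs1 at 0.64 and 0.79 and with Postn at 0.61 and 0.71. For Tnc the same values were 0.19 and -0.41, and for Tgfbi 0.61 and -0.38. The myofibroblast and smooth muscle sum gave 0.71 and 0.75 with Fn1 and 0.60 and 0.62 with Postn. The macrophage and monocyte sum gave -0.02 and 0.88 with Fn1 and 0.20 and 0.74 with Postn. On the negative side it was thus at least as close to both genes as the stromal sum. Negative values of similar size were found as well. The osteoclast sum gave -0.78 and -0.96 with Fn1 and -0.77 and -0.73 with Postn. The sex-linked sum gave -0.70 and -0.67 with Fn1 and -0.72 and -0.86 with Postn. It adds Xist to the Y-linked Eif2s3y, Kdm5d and Uty, so it has no direction by sex. Xist, the brightest of them by mean signal, was high in every co-culture and low in all controls but those numbered 3 and 4. The values of this sum therefore cannot be told apart from the group difference. Sums of the other lists are not given here.

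**Figure D4:**
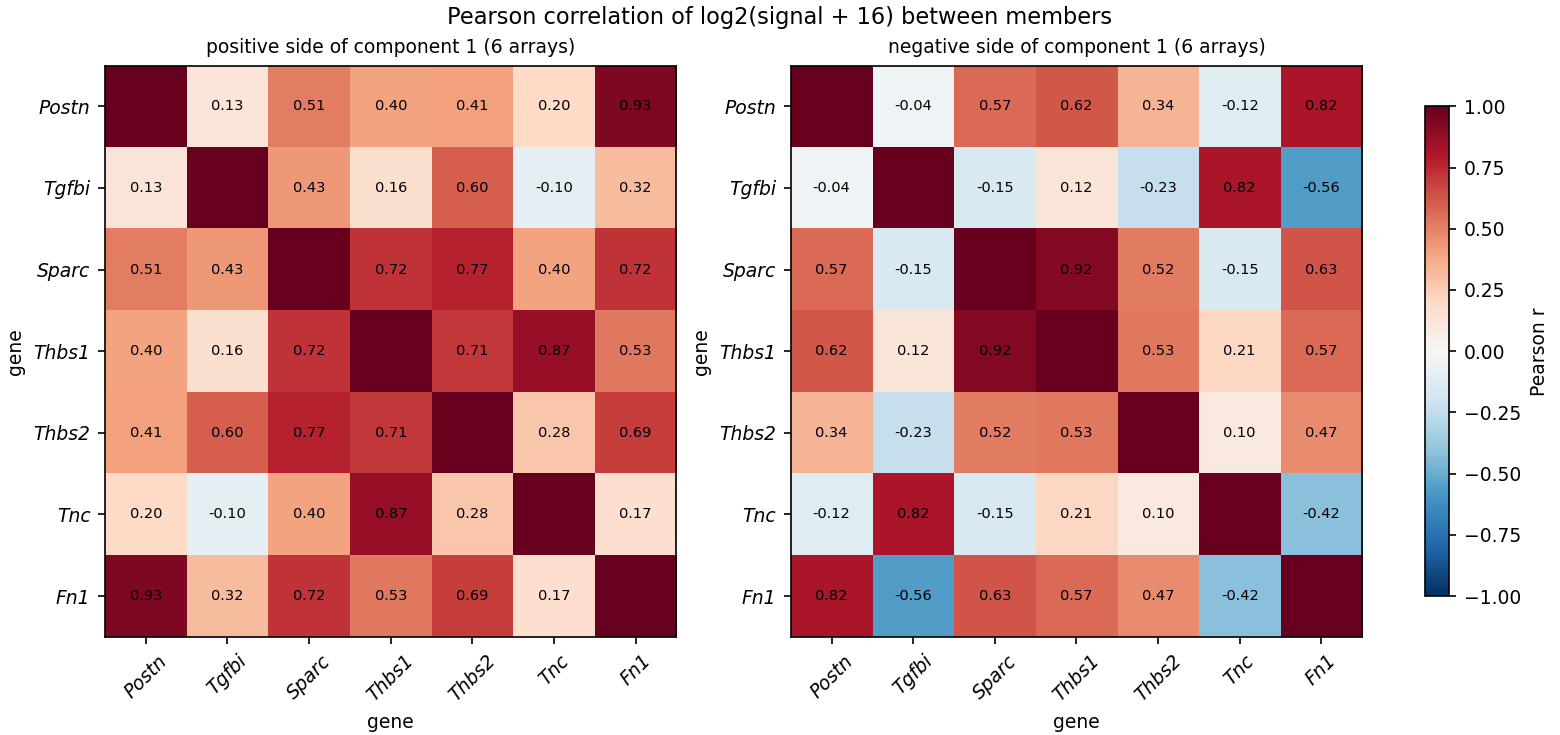
Pearson correlation between the 7 genes (brightest probe sets, log2(signal + 16)) over the 6 arrays of the positive side (left) and the 6 of the negative side (right), with red for positive and blue for negative values. Of 21 pairs, 20 are positive at the left and 14 at the right, and the negative ones at the right involve Tgfbi or Tnc.

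Likeness to each member was searched over 10180 genes with a mean signal of at least 100. The highest r among so many is large in part through this choice. Over the 12 arrays, the pattern most like Postn was that of Eif5 (r = 0.95), a translation initiation factor. Next came Cdc42ep3, Nacc2 and Thada (0.87 each). They were followed by Nhlrc3 and Fbxo25 (0.86), Lurap1l and Timp1 (0.85), and Prpsap1 and Flot1 (0.84). Timp1 encodes an inhibitor of matrix metalloproteinases. All 10 had a lower mean in co-culture, from -0.34 for Thada to -0.09 for Nhlrc3, which their choice by likeness to Postn largely fixes, and none of them split by side. As deviations from the side means, their r with Postn was 0.82 to 0.95. The 3 most like Tgfbi, namely Vwa5a, Tmx4 and the collagenase gene Mmp8, reached r = 0.97 each but split by side themselves, and as deviations from the side means their r was 0.57, 0.69 and 0.52. For Fn1 they were Angpt4, Akap2 and Surf2 (0.98, 0.97 and 0.96), and for Sparc Fat1, Ptprg and Tspan6 (0.95, 0.95 and 0.94). For Thbs1 they were Gpc4, Aldh1l2 and P4ha1, a subunit of collagen prolyl hydroxylase (0.97, 0.97 and 0.96). The genes most like Thbs2 were Yap1, the stromal factor gene Prrx1 and Nedd4 (0.93, 0.91 and 0.90), and those most like Tnc were Lars, Sgf29 and Psph (0.95, 0.94 and 0.93).

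The wider pathway was read through 4 lists written from textbook knowledge, 110 distinct genes in all at their brightest probe set. None passed limma's adjusted test, and at an unadjusted p under 0.05, 2 were higher and 4 lower, beside 2.81% and 1.55% of all probe sets. Without the arrays numbered 3 and 4 there were 5 higher and 18 lower of 110, beside 4.02% and 2.83% of all probe sets, and again none passed the adjusted test. Of 38 further matricellular and related genes, 36 were measured, 24 with a lower and 12 with a higher mean (median difference -0.10). Of these 36, 20 were dim, with a mean signal under 100. The 4 with the smallest p were Fbln7 at -0.71 (SE 0.21), Ccn6 at 0.39 (SE 0.13), Ccn2 at -0.41 (SE 0.18) and Fbln5 at -0.50 (SE 0.26). Ccn2 encodes connective tissue growth factor, a TGF-beta and YAP target, and measured 9488 ± 1705 in co-cultures and 12786 ± 3583 (SD, n = 6) in controls. Fbln7 was dim, at 13.8 ± 9.06 and 31.9 ± 10.2 (SD, n = 6), as was Ccn6, at 46.2 ± 10.2 and 31.3 ± 6.44.

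All 24 receptor genes were measured, 14 lower and 10 higher (median -0.01), and the smallest p among them belonged to Itgb1, the integrin beta chain used by fibronectin receptors, at -0.19 (SE 0.10). Next were Itga2 at -0.65, Cspg4 at 0.49 and Itgb6 at 0.34. Itga2 and Itgb6 were dim, with mean signals under 100 in both groups. The other probe set of Itgb6 gave -0.24, in the opposite direction, and that of Cspg4 gave 0.06. Genes of matrix crosslinking and processing were divided evenly, with 11 lower and 12 higher of 23 measured (median 0.01). Mmp7, the metalloproteinase matrilysin, stood first among them at 0.85 (SE 0.16, adjusted p = 0.401 from limma), with 42.3 ± 15.1 in co-cultures and 15.8 ± 5.02 (SD, n = 6) in controls, both dim. Loxl3, a lysyl oxidase relative that crosslinks collagen, had -0.37, Mmp2 -0.33 and Tll1 -0.58. Tll1 was dim, with means of 40.4 in co-cultures and 63.5 in controls. In the TGF-beta pathway 19 of 27 measured genes were lower and 8 higher (median -0.08). The smallest p belonged to Twist1 at -0.53, followed by Tgfb3 at -0.46, Ltbp4 at -0.62 and Pmepa1, a TGF-beta target, at -0.36. Twist1 and Ltbp4 were dim, with means of 74.6 and 28.3 in co-cultures and 116 and 47.1 in controls.

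Among the lists of other cell types, myofibroblast and smooth muscle genes stood beside the members. Of 5, 4 had a lower mean in co-culture (median -0.36), with Acta2 at -0.36 (SE 0.14) and Tagln at -0.47 (SE 0.20), and their summed signal was 12687 to 22567 in co-cultures and 18649 to 30774 in controls. None of the 5 passed the adjusted test, and their part in the members' differences was not tested. In the adipocyte, endothelial and osteoclast lists, in which also none passed, 3 of 3, 4 of 4 and 4 of 5 genes had a higher mean (medians 0.19, 0.23 and 0.14). Of these genes, 1 of 3, 3 of 4 and 3 of 5 were dim, with a mean signal under 100. Lpl was level at 0.01 (SE 0.14), Fabp4 had 0.20 (SE 0.18), and Adipoq was dim at 19.5 ± 13.2 and 14.0 ± 6.51 (SD, n = 6). Osteoblast genes were dim, with all 3 measured, Sp7, Ibsp and Alpl, under 100. Of 5 HSC and progenitor genes measured, 2 were lower and 3 higher (median 0.01), and 2 of the 5 were dim. Cd34, 1 of the dim ones, had 0.74 (SE 0.31). Both erythroid genes measured were higher (median 0.32), and 1 was dim. None in these 2 lists passed the adjusted test.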

How the data were processed

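Total RNA of 12 cultures was hybridized to Affymetrix mouse arrays. The authors used the GeneChip Operating Software. Its signal per probe set, as deposited, is linear and scaled to a common trimmed mean. The sources used here give neither the summary method nor the scaling target. Groups and replicate numbers came from the sample labels. Of 45037 probe sets, 34945 carried 1 symbol in the platform annotation, 932 several and 9160 none, and 34741 were matched by gene ID to RefSeq with 0 symbols changed. A gene is represented by its brightest probe set. Groups were compared over all probe sets on log2(signal + 16) with limma 3.58.1 (lmFit and eBayes) in R 4.3.3, without block or filter, with Benjamini-Hochberg adjustment and a threshold of 0.05. The script was tested on simulated data.

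The members and gene lists were chosen with earlier results of these data known. Named genes are the members, the up to 4 genes of each related list with the smallest p, the 10 genes most like Postn and the 3 most like each other member by Pearson correlation, the cell type markers and the genes called. Listed genes with no probe set of a single symbol were not analysed here, nor was a probe set shared by Thbs1 and Pald1. Same-numbered samples of the groups deviated together with correlations of -0.16, -0.13, 0.12, 0.15, 0.10 and 0.15, and the numbers were not taken as pairs. Y-linked signals did match by number, being low at numbers 3 and 4 in both groups and present at the others. Whether same-numbered samples share a source is therefore not settled, and fits with the number as a block are among the alternatives. Arrays have no depth, and precision is set by how many there are. Alternatives covered scaling, the constant, a filter on dim probe sets, blocks, limma's options, the methods' t-test and left-out arrays.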

Additional observations from a re-analysis of the deposited data

Results flagged for a closer look

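Of 34 groups of 6 arrays examined for the members' probe sets, 2 held an array far from the other 5, and chance flags about 1 group in 20. A second probe set of Thbs2 read 489.0 in co-culture 3, where the other co-cultures read 235.2 to 296.8. The dim probe set of Sparc read 7.3 in MSC-only 3, where the other controls read 45.7 to 91.7. Both arrays have sex-linked signals that go against the male label, as do the other co-cultures and MSC-only 4. Neither value is in the brightest probe set of its gene.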

How the results depend on the processing

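The group differences of Postn, Sparc, Thbs1, Thbs2, Tnc and Fn1 kept their direction under all 23 settings tried for each, from -0.90 to -0.48 for Postn, -0.43 to -0.11 for Sparc, -0.30 to -0.12 for Thbs1, -0.74 to -0.27 for Thbs2, -0.37 to -0.05 for Tnc and -0.50 to -0.14 for Fn1. That of Tgfbi ran from -0.33 to 0.13 and was above 0 without co-culture 2 or 5 or without MSC-only 2, 4 or 6. None of the 17 probe sets of the members was called under any limma setting, and 1 was (Postn) by the methods' t-test before adjustment, as were 6 of the related genes. The median correlation of the members, 0.31, was 0.43 without the arrays numbered 3 and 4 and ranged from 0.23, as deviations from the group means, to 0.40 in all other settings.

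The 2 calls over the whole table were 1 with median centring, with centring on the 75th percentile, with quantile normalization, with log2(signal + 1), with the side of the first component as a block (an alternative chosen after seeing the data) and with the methods' t-test after adjustment. They were 0 with log2(signal + 64), with only probe sets of mean signal at least 100, with the replicate block and with limma's trend and robust options, 8 without the arrays numbered 3 and 4, and 1868 with the methods' t-test before adjustment. Leaving out 1 array at a time gave 0 to 4, with 0 without co-culture 3 or MSC-only 1 and 4 without MSC-only 6. The cause of these changes was not tested. Under the replicate block the Postn difference was -0.62 (SE 0.23), and the block changed no call of a member. The split of unadjusted calls, 1264 higher and 700 lower, was 893 and 1065 with median centring and 918 and 1010 with quantile normalization.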
